A study of Arabidopsis thaliana with 12 samples.

Results

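BZIP60 (AT1G42990), ERDJ3B (AT3G62600), CRT1B (AT1G09210) and SEC61A (AT2G34250) belong to the machinery that brings proteins into the endoplasmic reticulum and folds them there. They were found as the probe sets that a gene table pairs with exactly 1 of these genes. That gave 4 probe sets for the 4 genes, 1 each, of 13356 genes with a probe set of their own and 22746 probe sets tested. Wild-type Arabidopsis thaliana seedlings grown on MS plates were profiled in 4 groups of 3 biological replicates, 12 arrays in all. The CK group was untreated. The INA group received 10 µM INA, an inducer of plant immunity, the BLM group received 4 µg/ml BLM, a DNA-damaging agent, and the BLM+INA group received both at these doses. The age of the seedlings and the length of treatment are not given in the sources used here, and a whole seedling mixes all its tissues. The series addresses how the agents act together on defence gene expression.

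Secreted and membrane proteins enter the endoplasmic reticulum through the Sec61 channel, whose pore is formed by the alpha subunit that SEC61A encodes. Inside, calreticulins such as the CRT1B product hold newly glycosylated proteins until they are folded, and J proteins such as the ERDJ3B product hand unfolded chains to the HSP70 chaperone BiP. When unfolded proteins accumulate, the membrane sensor IRE1 splices the BZIP60 messenger RNA, and the resulting transcription factor turns on chaperone genes. In plants this system also serves immunity, because many pathogenesis-related proteins and surface receptors pass through it. The arrays gave 1 signal per gene, and whether the BZIP60 probe set tells spliced from unspliced RNA was not tested.

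Each value is a log2 signal centred on the median of its probe set, so a difference of 1 between groups is a 2-fold difference. This centring removed the exact levels, and only a broad class of a probe set's lowest log2 level could be read from number spacing. BZIP60 fell in the class of 4 to 8, and ERDJ3B, CRT1B and SEC61A in that of 8 or over. No finer comparison of level between genes can be made. In bulk tissue, less RNA per cell cannot be told apart from fewer cells that express the gene. Changes are log2 differences ± SE with n = 3 arrays per group. They come from limma, which fitted all 12 arrays, with two-sided p values adjusted by the Benjamini-Hochberg method over all 22746 probe sets and a threshold of 0.05.

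By their group means the 4 genes fell into a pair of patterns, and differences between the genes were not tested. BZIP60, the transcription factor gene, was highest with both agents, about 2-fold above the control, while ERDJ3B, CRT1B and SEC61A, which encode folding and translocation proteins, were lowest with BLM alone and stood at or slightly above the control level with both agents. Of ERDJ3B, CRT1B and SEC61A, only CRT1B passed the threshold for a fall with BLM against CK. In each of the 4 genes all 3 BLM+INA arrays lay above all 3 BLM arrays. Such separation, in either direction, was seen for 20.7% of all probe sets.

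**Figure D1:**
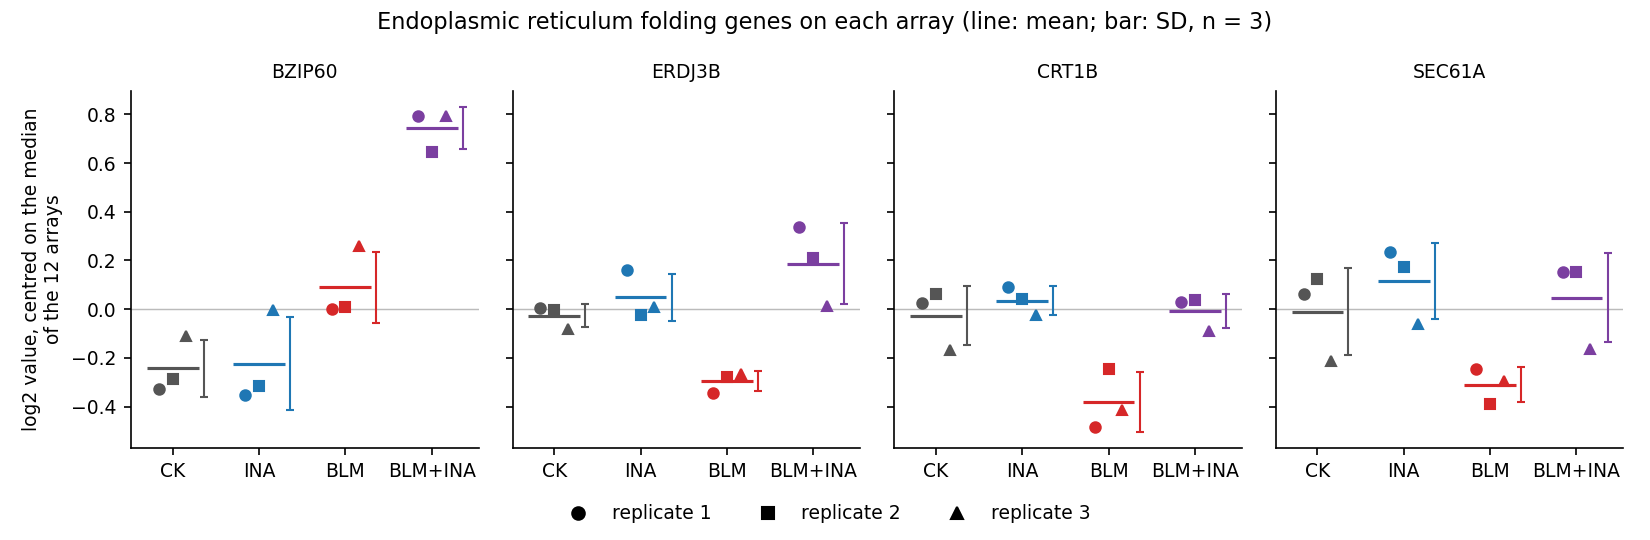
The 4 panels plot the log2 value of each gene on each array, centred on its median over the 12 arrays, for CK, INA, BLM and BLM+INA. Symbols mark replicate numbers, lines the group means and bars the SD of 3 arrays. BZIP60 is highest in BLM+INA, with means of -0.24 in CK and 0.75 in BLM+INA, and the other 3 genes are lowest in BLM.

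BZIP60 read -0.33, -0.29 and -0.11 on the 3 CK arrays, -0.35, -0.32 and -0.0022 with INA, 0.0022, 0.0084 and 0.26 with BLM, and 0.79, 0.65 and 0.79 with both agents. The BLM+INA arrays lay above every other array, the BLM arrays lay above every CK and INA array, and CK and INA overlapped. The group means were -0.24 ± 0.12 (SD, n = 3) for CK, -0.22 ± 0.19 for INA, 0.09 ± 0.15 for BLM and 0.75 ± 0.09 for BLM+INA. In this order, CK and INA did not differ beyond their spread, with a difference of 0.02 ± 0.12 (95% interval -0.22 to 0.26). BLM stood 0.33 ± 0.12 above CK, which missed the threshold (adjusted p = 0.0586). It passed without CK replicate 3, at 0.40, and without INA replicate 3, at 0.33.

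With both agents BZIP60 rose by 0.99 ± 0.12 over CK (adjusted p = 4.9e-06), which is 1.98-fold. It rose by 0.66 ± 0.12 over BLM (adjusted p = 0.00148, 1.58-fold) and by 0.97 ± 0.12 over INA (adjusted p = 9.1e-06, 1.96-fold). Its rank from the highest among the 22746 changes was 580 against CK, 422 against BLM and 372 against INA. All 3 calls held in each of the 12 fits that left out 1 array, with values of 0.94 to 1.05 against CK, 0.61 to 0.74 against BLM and 0.90 to 1.08 against INA.

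ERDJ3B read 0.0044, -0.0044 and -0.08 in CK, 0.16, -0.02 and 0.0092 with INA, -0.34, -0.28 and -0.27 with BLM, and 0.34, 0.21 and 0.01 with both agents. The 3 BLM arrays lay below the other 9, and the lowest BLM+INA array lay just above the highest CK array. The means were -0.03 ± 0.05 (SD, n = 3), 0.05 ± 0.10, -0.30 ± 0.04 and 0.19 ± 0.17 in the same order. With both agents the gene rose by 0.48 ± 0.10 over BLM (adjusted p = 0.00648), which is 1.40-fold, and this call held in all 12 fits without 1 array (0.41 to 0.57). Against CK, neither BLM (-0.27 ± 0.10, adjusted p = 0.0809) nor BLM+INA (0.21 ± 0.10, adjusted p = 0.155) passed. In the order BLM, CK, INA, BLM+INA no neighbours differed beyond the threshold.

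CRT1B read 0.03, 0.06 and -0.17 in CK, 0.09, 0.04 and -0.03 with INA, -0.48, -0.25 and -0.41 with BLM, and 0.03, 0.04 and -0.09 with both agents. The BLM arrays again lay below all others, and CK, INA and BLM+INA overlapped. The means were -0.03 ± 0.12 (SD, n = 3), 0.04 ± 0.06, -0.38 ± 0.12 and -0.0081 ± 0.07. CRT1B fell by 0.35 ± 0.10 with BLM against CK (adjusted p = 0.0203), a ratio of 0.782. That call was lost without CK replicate 1 (-0.33), CK replicate 2 (-0.31), BLM replicate 1 (-0.30) or BLM replicate 3 (-0.34).

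With both agents CRT1B rose by 0.37 ± 0.10 over BLM (adjusted p = 0.0345). It did not pass when 1 array was dropped in 5 of 12 fits: BLM replicate 1 (0.32), BLM replicate 3 (0.36), BLM+INA replicate 1 (0.35), BLM+INA replicate 2 (0.35) or BLM+INA replicate 3 (0.41). Nor did it pass when only the BLM and BLM+INA arrays were fitted (0.37, adjusted p = 0.0837). Against CK it stood at 0.02 ± 0.10 with both agents (95% interval -0.19 to 0.23). CRT1B was the smallest of the 4 changes against CK in BLM+INA.

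SEC61A read 0.06, 0.12 and -0.21 in CK, 0.24, 0.17 and -0.06 with INA, -0.25, -0.39 and -0.29 with BLM, and 0.15, 0.15 and -0.17 with both agents. The BLM arrays lay below the other 9, with CK replicate 3 next, and the other 3 groups overlapped. The means were -0.0097 ± 0.18 (SD, n = 3), 0.12 ± 0.16, -0.31 ± 0.07 and 0.05 ± 0.18. No difference of SEC61A passed: it stood at -0.30 ± 0.12 with BLM against CK (adjusted p = 0.104) and at 0.36 ± 0.12 with both agents against BLM (adjusted p = 0.106). The first passed without CK replicate 3 (-0.40) and the second without BLM+INA replicate 3 (0.46). Both also passed in an alternative fit with the replicate number as a block. The labels do not say that a number marks a shared batch.

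Counted over the 4 genes, the comparison of INA with CK gave 0 calls with limma and 0 at an unadjusted p under 0.05. Over all probe sets 1.16% were called there and 7.29% had an unadjusted p under 0.05. The 95% intervals were -0.22 to 0.26 for BZIP60, -0.14 to 0.29 for ERDJ3B, -0.15 to 0.27 for CRT1B and -0.13 to 0.38 for SEC61A. With BLM against CK, 1 of 4 was called lower, against 8.29% of all probe sets, and 0 of 4 higher, against 8.38%. All 4 had an unadjusted p under 0.05 there, as did 28.9% of all probe sets, and in all 4 the arrays did not overlap, as for 32.8% of all probe sets. With both agents against BLM, 3 of 4 were called higher, against 3.44% of all probe sets, and 0 lower, against 2.37%, with 4 at an unadjusted p under 0.05 (16.9% of all). Against CK, 1 of 4 was called higher with both agents (11.2% of all) and 0 lower (11% of all), with 2 at an unadjusted p under 0.05 (31.8% of all). Against INA, 1 of 4 was called higher (9.27% of all) and 0 lower (9.52% of all), with 1 at an unadjusted p under 0.05 (29.9% of all). The comparisons share arrays, so these counts are not independent, and the genes were chosen with results of these arrays known.

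The interaction asks whether the change from INA differs with and without BLM. All 4 estimates lay above 0, as did 45.3% of all probe sets. They were 0.64 ± 0.16 for BZIP60 (adjusted p = 0.142), 0.41 ± 0.14 for ERDJ3B (adjusted p = 0.43), 0.31 ± 0.14 for CRT1B (adjusted p = 0.647) and 0.23 ± 0.17 for SEC61A (adjusted p = 0.821). None passed in the main limma fit, where 0.382% of all probe sets did, and 3 of the 4 had an unadjusted p under 0.05, against 7.47% of all. BZIP60 ranked 229 from the highest of 22746 and passed without INA replicate 3, at 0.75. It also passed in the alternative fit with the replicate number as a block.

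**Figure D2:**
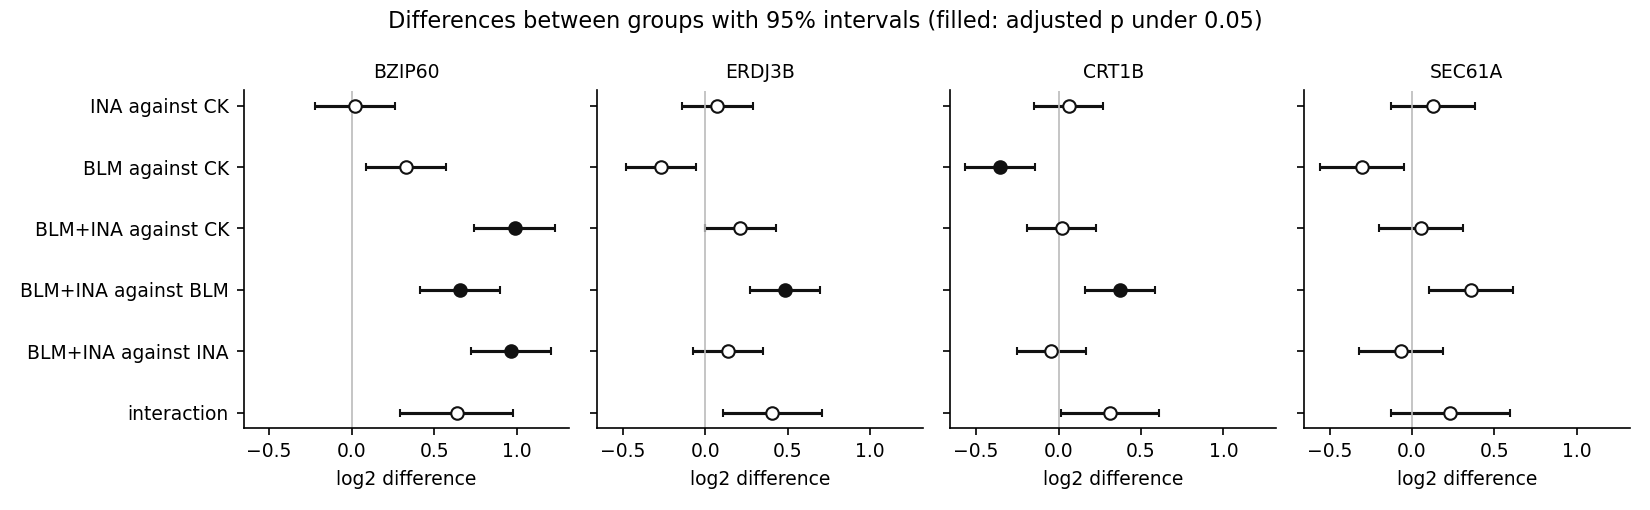
The 4 panels plot, per gene, the log2 difference between groups with its 95% interval for 5 comparisons and the interaction. Filled points passed an adjusted p of 0.05. BZIP60 passed in the 3 comparisons of BLM+INA, ERDJ3B in BLM+INA against BLM (0.48), CRT1B in BLM against CK (-0.35) and BLM+INA against BLM (0.37), and SEC61A in none.

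The genes also varied among themselves within groups. Over the 12 arrays, Pearson's r was 0.84 between ERDJ3B and CRT1B, 0.82 between ERDJ3B and SEC61A and 0.86 between CRT1B and SEC61A, and it lay between -0.11 and 0.34 for BZIP60 with each of them. After the group means were taken off, r was 0.60, 0.68 and 0.58 for the first 3 pairs and between -0.64 and -0.20 for the pairs with BZIP60. These are descriptions of 12 arrays in 4 groups that share replicate numbers. Replicate 3 was the highest of its group for BZIP60 in CK, INA and BLM, and the lowest of its group for CRT1B and SEC61A in CK, INA and BLM+INA.

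To place the genes in their pathway, a list of 76 genes of endoplasmic reticulum import, folding and degradation was used, of which 27 had a probe set of their own, 29 probe sets in all. For 14 of these 27, SEC61A included, RefSeq gives the locus tag only, and the names used here are those of the list. In the gene table used, the 4 genes listed as HSP70 and HSP90 chaperones and the 12 listed as disulfide and proline isomerases had none. They were not analysed here. That gene table holds no entry for 8730 of the 22746 probe sets tested. The array may therefore carry probe sets for listed genes that were left out, and the 27 genes are not a full sample of the pathway. Against CK, 0 of the 27 genes were called with INA (1.16% of all probe sets), with 1 at an unadjusted p under 0.05 (7.29% of all). With BLM 3 were called lower (11.1%, near the 8.29% of all probe sets) and 0 higher (8.38% of all). With both agents 6 were called higher than in CK (22.2%, against 11.2% of all) and 0 lower (11% of all). Against BLM, 4 were called higher with both agents (14.8%, against 3.44% of all) and 0 lower (2.37% of all), and 3 of these 4 are BZIP60, ERDJ3B and CRT1B. Against INA, 3 were called higher (11.1%, near the 9.27% of all) and 1 lower (3.7%, against 9.52% of all). The interaction gave 0 calls (0.382% of all), with 4 genes at an unadjusted p under 0.05 (7.47% of all). The 4 include BZIP60, ERDJ3B and CRT1B. The count of calls with BLM fell to 1 without CK replicate 1, CK replicate 2 or BLM replicate 3 and to 0 without BLM replicate 1, and it was 5 without CK replicate 3. The count with both agents against CK fell to 3 without CK replicate 1 or BLM+INA replicate 1, and that against INA fell to 2 without INA replicate 1, BLM+INA replicate 1 or BLM+INA replicate 2.

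The median change of the 27 genes was -0.03 with BLM, where that of all probe sets was 0.04, and 0.15 with both agents, where that of all was 0.02. In BLM+INA against BLM the median was 0.13, against -0.02 for all probe sets, and 23 of the 27 genes (85.2%) lay above 0, against 46.3% of all probe sets. No list probe set was read in the level class of 2 to 4, where 39.2% of all lay above 0. In the classes of 4 to 8 and of 8 or over, 49.7% and 49% of all did. Without BZIP60, ERDJ3B, CRT1B and SEC61A, 19 of 23 genes lay above 0 and 1 was called higher, a share of 4.35% near the 3.44% of all probe sets. The shift was not confined to that comparison. With INA against CK the median of the 27 was 0.075, against 0.008 for all probe sets. There 24 of the 27 genes (88.9%) lay above 0, against 52.7% of all, and 20 of 23 without the 4. With BLM against CK, 1 of the 8 list probe sets at 8 or over lay above 0, against 49% of all in that class. Those below 0 include ERDJ3B, CRT1B and SEC61A, which were chosen with results of these arrays known. The others below 0 were TRAP-alpha, TRAP-beta, SPC21 and OST1A, and SEC62 lay above 0. Of the 19 at 4 to 8, BZIP60 included, 12 lay above 0, against 53.7% of all in that class.

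**Figure D3:**
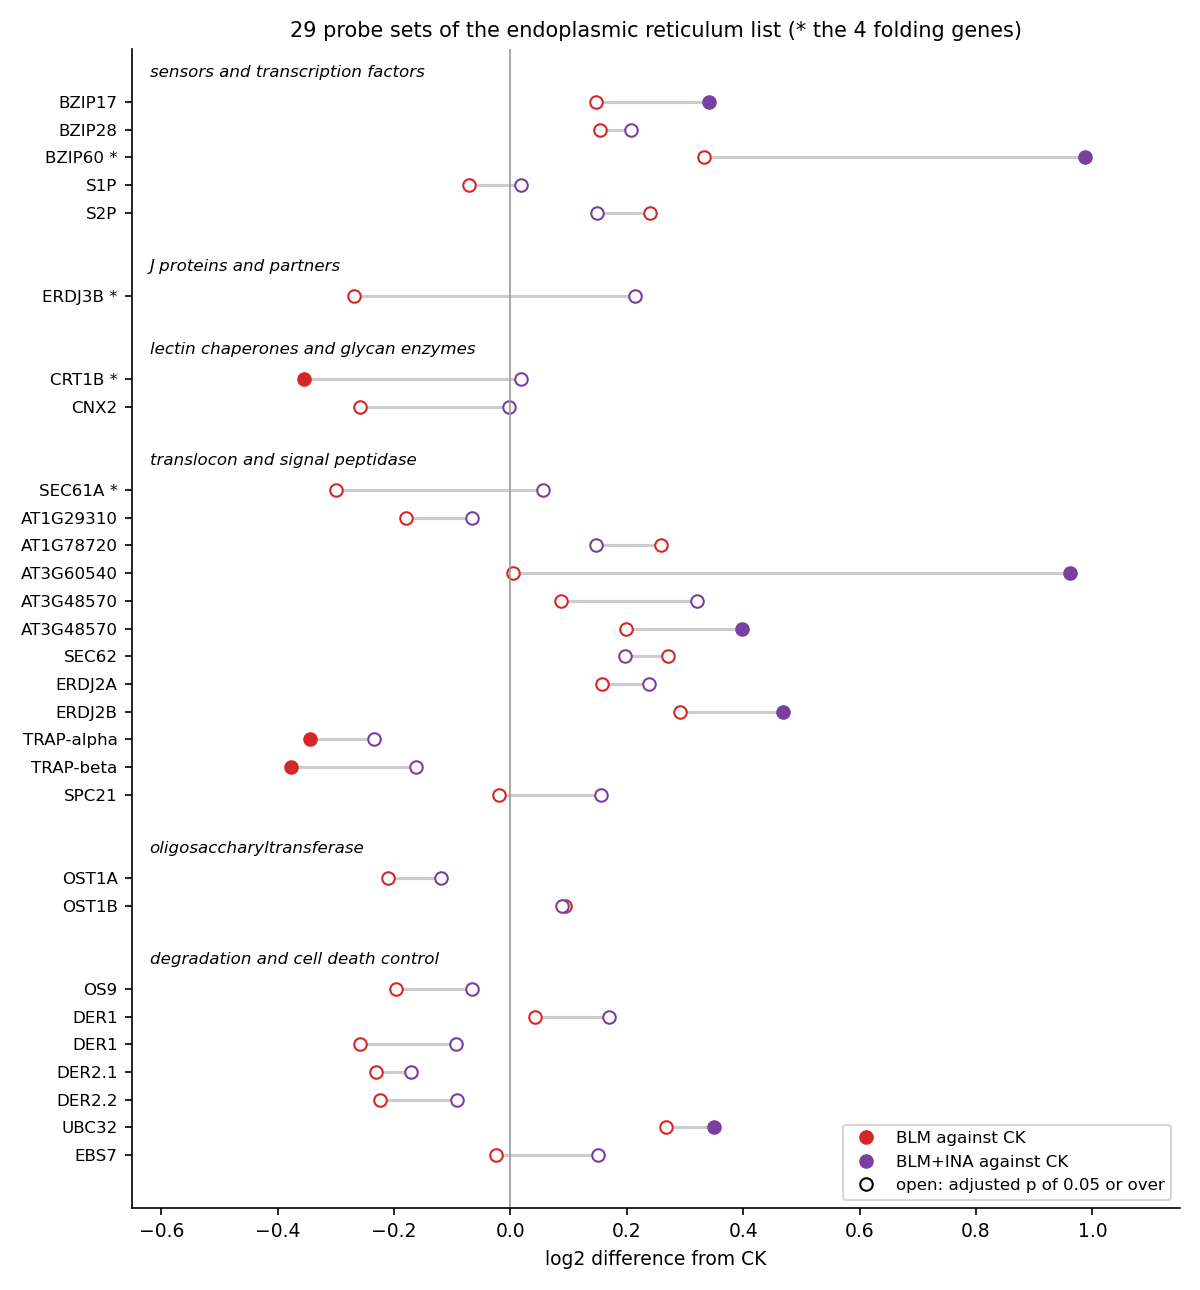
Each row is 1 of the 29 probe sets of the endoplasmic reticulum list, grouped by role, with its log2 difference from CK in BLM (red) and in BLM+INA (purple). Filled points passed an adjusted p of 0.05. BZIP60 and AT3G60540 reach 0.99 and 0.96 with both agents, and CRT1B, TRAP-alpha and TRAP-beta are the 3 called lower with BLM.

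Among the sensors and transcription factors, 5 of 11 genes were measured. BZIP17 and BZIP28 encode membrane-anchored transcription factors that are cut by the S1P and S2P proteases under stress. BZIP17 rose with both agents against CK (0.34 ± 0.11, adjusted p = 0.033). It lay outside the 4 largest rises of that comparison and was named after its value was seen, and its call was lost in 5 of 12 fits without 1 array (0.28 to 0.41). BZIP28 stood at 0.21 ± 0.11 there (adjusted p = 0.218), and S1P and S2P were called in no comparison. BZIP60 was the only one of the 5 called in BLM+INA against BLM.

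The Sec61 channel pairs its alpha subunit with small beta and gamma subunits, and 5 genes listed as Sec61 subunits were measured. AT3G60540, listed as a beta subunit, read -0.18, -0.20 and -0.04 in CK, 0.32, 0.04 and 0.09 with INA, -0.09, -0.26 and -0.05 with BLM, and 0.58, 0.79 and 1.09 with both agents. Its BLM+INA arrays lay above all others, its INA arrays lay between these and the CK arrays, and CK and BLM overlapped. It rose with both agents by 0.96 ± 0.12 over CK (adjusted p = 1.6e-05), by 0.96 ± 0.12 over BLM (adjusted p = 6.87e-05) and by 0.67 ± 0.12 over INA (adjusted p = 0.000827). These calls held in all 12 fits without 1 array, and its interaction was 0.67 ± 0.18 (adjusted p = 0.165).

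The 3 genes listed as alpha subunits were called in no comparison. SEC61A was lowest with BLM, AT1G29310 stood at -0.18 ± 0.10 with BLM against CK (adjusted p = 0.263), and AT1G78720 at 0.26 ± 0.10 (adjusted p = 0.105). For AT3G48570, listed as a gamma subunit, 1 of its 2 probe sets rose with both agents against CK (0.40 ± 0.11, adjusted p = 0.0166) and the other stood at 0.32 ± 0.16 (adjusted p = 0.181). The call was lost without CK replicate 1 (0.32), CK replicate 2 (0.38) or BLM+INA replicate 3 (0.37). SEC61A itself stood at 0.06 ± 0.12 in that comparison.

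**Figure D4:**
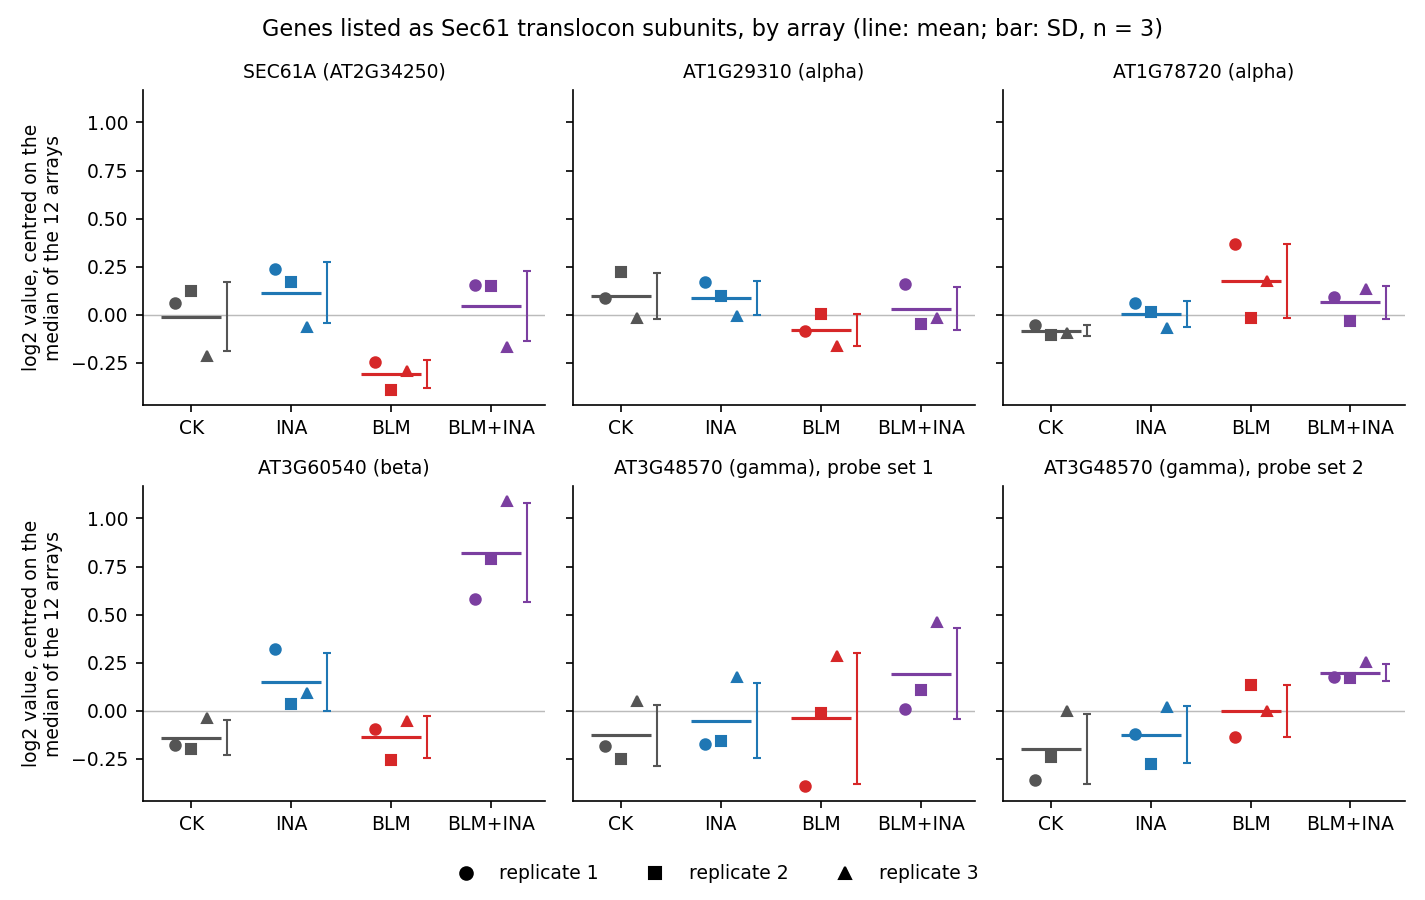
The 6 panels plot the log2 value on each array, centred on the median of the 12 arrays, for the probe sets listed as Sec61 subunits. Symbols mark replicate numbers, lines the means and bars the SD of 3 arrays. AT3G60540 reaches 0.58 to 1.09 in BLM+INA, while SEC61A is lowest in BLM.

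Other translocation genes moved in both directions. ERDJ2B, which encodes a Sec63-type J protein at the channel, rose with both agents over CK (0.47 ± 0.13, adjusted p = 0.0134) and over INA (0.47 ± 0.13, adjusted p = 0.0154). The first call was lost without CK replicate 3 (0.31) or BLM+INA replicate 1 (0.39), and the second without INA replicate 1 (0.44), BLM+INA replicate 1 (0.39) or BLM+INA replicate 2 (0.45). The genes listed as the channel-associated subunits TRAP-alpha (-0.34 ± 0.10, adjusted p = 0.0265) and TRAP-beta (-0.38 ± 0.10, adjusted p = 0.017) fell with BLM against CK, as CRT1B did. The TRAP-alpha call was absent in 5 of 12 fits that dropped 1 array (-0.39 to -0.31), and the TRAP-beta call without CK replicate 2 (-0.35), BLM replicate 1 (-0.32) or BLM replicate 2 (-0.34). With both agents against BLM they stood at 0.11 ± 0.10 (adjusted p = 0.672) and 0.22 ± 0.10 (adjusted p = 0.302), so unlike CRT1B neither was called higher than in BLM. These differences between genes were not tested.

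The gene listed as calnexin CNX2, a membrane-bound relative of calreticulin, stood at -0.26 ± 0.13 with BLM against CK (adjusted p = 0.214) and at 0.26 ± 0.13 with both agents against BLM (adjusted p = 0.355). In BLM+INA against INA, OST1A, listed as a subunit of the enzyme that attaches glycans to nascent proteins, fell (-0.35 ± 0.12, adjusted p = 0.0459). That call was absent in 9 of 12 fits that dropped 1 array (-0.48 to -0.28). Among 6 measured degradation genes, the ubiquitin-conjugating enzyme gene UBC32 rose with both agents against CK (0.35 ± 0.11, adjusted p = 0.0255). It was named after its value was seen, and its call was lost in 5 of 12 fits without 1 array (0.24 to 0.47). The derlin genes DER1, DER2.1 and DER2.2, whose products help export misfolded proteins, were called in no comparison.

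By Pearson's r over the 12 arrays, among 13512 probe sets with exactly 1 gene, BZIP60 was closest to AT5G38895 (0.98), ZCF37 (0.97) and AT1G26550 (0.97). ZCF37 rose by 1.05 with both agents over BLM. ERDJ3B was closest to AT5G11650 (0.94), AT5G49760 (0.93) and AT5G20950 (0.91), CRT1B to AT2G40290 (0.96), AT5G20950 (0.92) and AT5G57460 (0.91), and SEC61A to AT4G36790 (0.89), AT1G80930 (0.88) and GTR2 (0.88). AT5G20950 was thus among the 3 closest to both ERDJ3B and CRT1B, and it rose by 0.60 with both agents over BLM. The arrays fall into 4 groups, so the points of each correlation share their groups.

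With BLM against CK, 3 of 6 measured tissue markers were called, all lower, where 8.29% of all probe sets were called lower. Of 12 root genes 3 were measured, and the root hair expansin genes EXP7 (-1.21 ± 0.12, adjusted p = 9.72e-07) and EXP18 (-0.82 ± 0.11, adjusted p = 3.79e-05) fell with BLM against CK while PYK10 stood at -0.06 (adjusted p = 0.729). The mean of the 3 root genes lay between 0.32 and 0.44 on the CK arrays, 0.22 and 0.35 with INA, -0.34 and -0.32 with BLM, and -0.40 and -0.36 with both agents. Of 10 green shoot genes 3 were measured, and their mean lay between 0.09 and 0.15, 0.01 and 0.10, -0.08 and -0.05, and -0.22 and -0.16 in the same order. With BLM against CK, PSAN fell (-0.52 ± 0.09, adjusted p = 0.000588), while LHCB4.2 stood at -0.06 (adjusted p = 0.722) and RCA at 0.02 (adjusted p = 0.917). With both agents against BLM, 0 of the 6 markers were called, where 3.44% of all probe sets were called higher and 2.37% lower. EXP7 stood there at 0.05, PYK10 at 0.04 and EXP18 at -0.25 (adjusted p = 0.236), and the green shoot genes lay between -0.22 and -0.0035. EXP18 and LHCB4.2 had an unadjusted limma p under 0.05 there, as did 16.9% of all probe sets. Against CK, EXP7, EXP18, PSAN and LHCB4.2 were called lower with both agents, as were 11% of all probe sets. All of these were also called lower with both agents than with INA, as were 9.52% of all. The part of tissue makeup in the changes of the 4 endoplasmic reticulum genes was not tested. The actin 3′ minus 5′ signal, a measure of RNA integrity, can be compared only between groups, because control probe sets were centred too. It was -0.09 ± 0.20 (SD, n = 3) in CK, -0.24 ± 0.28 with INA, -0.21 ± 0.24 with BLM and 0.07 ± 0.06 with both agents. BLM and BLM+INA did not overlap. A second actin probe pair gave 0.08 ± 0.22 with BLM and 0.17 ± 0.41 with both agents, which overlapped. The GAPDH pair gave -0.04 ± 0.06 and -0.08 ± 0.32, which also overlapped and lay in the other direction. The part of RNA integrity in the comparison with BLM was not tested.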

How the data were processed

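The deposited values are log2 values. The authors used RMA, per the submitters' processing notes (version not given in the sources used here), a method that removes background, equalises array distributions by quantiles and combines each set's probes. Base 2 is that of RMA. Each probe set had then been centred, as row medians were 0 within 5e-07. Of 22810 probe sets, 64 controls were set aside. The gene table paired 13513 with exactly 1 gene. No depth exists for arrays, so their number limits the precision.

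Group means were estimated from the 12 arrays by limma 3.58.1 in R 4.3.3 (8 residual and 8.82 prior degrees of freedom), after a test on simulated data. Named genes were the 4 members, up to 4 rises and 4 falls of the endoplasmic reticulum list past the threshold per comparison, and the 3 genes closest to each member. The members and lists were chosen with earlier results of these data known. Level classes came from how finely the stored numbers are spaced. Alternatives were array centring, quantile normalization, array weights, robust or unmoderated variances, the replicate block, the compared groups only, probe sets with exactly 1 gene, no dim probe sets, and each array left out. Alternatives for other list genes were added after their calls were seen. Figures were drawn with matplotlib 3.10.9. Same-numbered arrays had correlated deviations over 0.1 in 10 of 18 pairs. Pairs of replicate 3 arrays all lay between 0.23 and 0.40, those of replicate 1 between 0.05 and 0.22, and those of replicate 2 between -0.05 and 0.08. The labels do not say that a number marks a shared batch, so the main fit did not pair them and the replicate block was an alternative.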

Additional observations from a re-analysis of the deposited data

How the results depend on the processing

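Of 265 recomputed values over 9 settings besides leaving out arrays, 253 kept their direction and side of the threshold, or stayed within 1.5 times for counts. Signs turned 10 times, 9 of them without 1 array, each time between values that did not pass: BZIP60 with INA against CK (0.02, without 1 array -0.091 to 0.085), CRT1B there (0.06, -0.0082 to 0.11), CRT1B with both agents against CK (0.02, with array weights -0.0057, without 1 array -0.051 to 0.062), SEC61A there (0.06, -0.045 to 0.16) and SEC61A with both agents against INA (-0.07, -0.16 to 0.037). BZIP60 with BLM against CK passed with array weights (0.36), with the replicate block (0.33) and without the 6352 dim probe sets (0.33, adjusted p = 0.0491), and ERDJ3B passed after quantile normalization (-0.27). With the replicate block, SEC61A passed with BLM against CK (-0.30) and with both agents against BLM (0.36), BZIP60 passed in the interaction (0.64, adjusted p = 0.0318), and the list counts were 5 for BLM, 7 for BLM+INA against INA and 1 for the interaction. When each array was matched to the arrays of the other groups, 6 of 12 correlated best with an array of their own number. No chance level was computed for this count. The highest same-number correlations were those among replicate 3 arrays. CRT1B with both agents lost its call with the compared groups only (0.37). The causes were not tested. Without 1 array at a time, BZIP60 with BLM ranged from 0.25 to 0.40, CRT1B from -0.42 to -0.30 and SEC61A from -0.40 to -0.23. Against BLM, CRT1B ranged from 0.32 to 0.44 and SEC61A from 0.30 to 0.46, and the BZIP60 interaction from 0.57 to 0.75. Counts ranged from 0 to 5 with BLM, 3 to 6 with both agents, 2 to 6 against INA and 0 to 1 for the interaction. Labels give biological replicates but no scan or extraction batch.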
